A study of Mus musculus with 4 samples.

Results

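The comparison set the array labelled Nr4a1 knockout (Nr4a1-/-) against the array labelled Nr4a1 wild type (Nr4a1+/+), which are 2 of the 4 arrays of the study, 1 for each genotype. The other pair came from circZbtb20+/+ and circZbtb20-/- mice, and the circZbtb20 wild type served here as a second reference only. All groups are labelled as sorted mouse group 3 innate lymphoid cells (ILC3s), gated as lineage-negative, CD90-high and CD45-low. The sources used here name neither the tissue, the lineage markers, the age and sex of the mice, nor whether animals were pooled. They also do not say which part of Nr4a1 is missing or whether it is missing in all cells. The array labelled Nr4a1 knockout goes against its ILC3 label, since genes of immature T cells were high and genes that define ILC3s were low on it. Genotype and cell identity therefore cannot be told apart in any difference given here, whether the array holds another sample or tissue than its label says was not tested, and "knockout" stands for the label. Rows with 1 gene symbol entered, which were 19571 of 22205. Where a gene had more than 1 row (55 genes), its row of highest mean over the 4 arrays was kept, which left 19504 genes.

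ILC3s are lymphocytes of barrier tissues that carry no rearranged antigen receptor, depend on the IL-7 receptor and the transcription factors Id2 and RORγt, and answer IL-23 and IL-1β with IL-22, IL-17 and GM-CSF. Nr4a1, also called Nur77, is an orphan nuclear receptor that binds a single copy of an extended hormone response sequence, the NBRE, and it is an immediate-early gene, made within minutes of a stimulus from transcription factors that are already present. In T cells it follows the strength of antigen receptor signalling, and together with Nr4a3 it is known for its part in the deletion of self-reactive thymocytes.

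Values are the deposited log2 values, and differences are log2 differences, knockout minus wild type. Triplets of values are given in the order knockout, Nr4a1 wild type, circZbtb20 wild type. A gene was called higher or lower by a rule of size, which asked for a difference of at least 1 (a 2-fold change) with the higher value at or above the median of its array. The array medians were 4.34 for the knockout, 4.51 for its wild type and 4.48 for the circZbtb20 wild type. The table has a ceiling at 19.93, so a difference from a value at the ceiling is a bound. With 1 array per genotype no difference has a replicate error, no test was made, and precision is limited by how few arrays there are.

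The knockout array stood far from both wild types. Of 11191 genes past the filter on low values, 3574 were called higher (31.9%) and 2327 lower (20.8%). When the same direction was asked of both wild types, 3042 of 10724 genes were higher (28.4%) and 1684 lower (15.7%), and 6 genes were called in opposite directions. The wild types differed from each other in 1631 of 10691 genes (15.3%), of which 907 were higher in the Nr4a1 wild type. Counts within a gene list are read against these shares, and a list near them does not stand apart from all genes. List counts are out of all measured members, and members not past the filter could not be called, so the bases differ. Of 23 other nuclear receptors 15 passed it, of 20 CD4-CD8- progenitor genes 15, of 22 BCL2 family genes 17 and of 10 thymic epithelial genes 3. Over genes past the filter, the median absolute difference was 1.07 between knockout and wild type, against 0.45 between the wild types. The median signed difference, knockout minus wild type, was 0.29 over genes past the filter and 0.0 over all genes. Large differences were more often downward: 94 genes were lower by at least 8 and 23 were higher by as much, and between the wild types 0 genes reached that size in either direction. Of the genes called higher, 685 lay under the array median in the wild type, and of those called lower, 901 lay under it in the knockout. Values under the median are poorly measured, so the differences of these genes are less exact than their decimals.

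**Figure D1:**
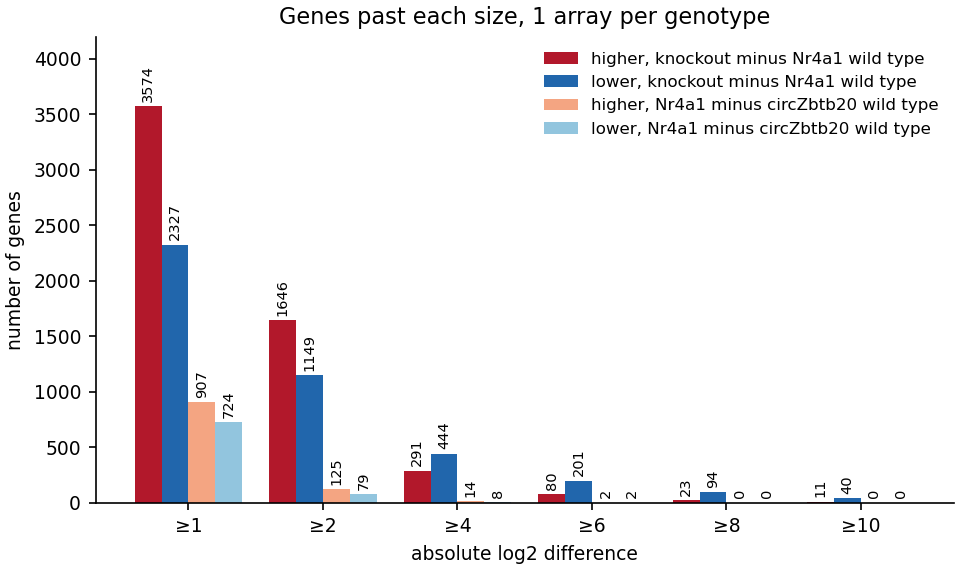
Number of genes (y axis) at or past each absolute log2 difference (x axis), with the higher value at or above its array's median. Dark bars are the knockout minus the Nr4a1 wild type and pale bars the Nr4a1 wild type minus the circZbtb20 wild type, red for higher and blue for lower. Past a difference of 4, lower genes (444) outnumber higher genes (291), and the wild types differ at that size in 14 and 8 genes.

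The targeted gene was read first. Nr4a1 stood at 11.63, 18.11 and 19.93, so it was lowest on the array labelled as its knockout, and the knockout value equalled that array's 95th percentile of 11.63. Nr4a2 (6.82, 14.63, 13.92) and Nr4a3 (12.54, 19.90, 19.93), the other members of the family, were not targeted and differed by -7.81 and -7.36, against -6.48 for Nr4a1 itself. Since all 3 genes were lower and the probed part of Nr4a1 is not given, these values do not check the label. Among the 5 measured genes on each side of Nr4a1 in the RefSeq gene order, 1 was called higher and 2 lower. Acvr1b, an activin receptor, was higher by 1.35. Grasp, the gene next to Nr4a1, differed by -2.31, and Krt7, a keratin, by -1.61, while Atg101, on the other side, was at 5.72, 5.19 and 5.02. These 4 neighbours were named after their values were seen.

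The genes of both sort markers were higher in the knockout. Thy1, which encodes CD90, stood at 16.00 against 12.36 on each wild-type array, a difference of 3.64. Ptprc, which encodes CD45, stood at 15.93 against 12.54 and 11.89, a difference of 3.39. The sort asked for cells low in CD45, and the surface protein was not measured here.

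Genes of the T cell lineage gave the largest upward differences, so the data go against the ILC3 label for the knockout array. All 6 measured genes of the T cell receptor complex were called higher against both wild types, by a median of 8.87, beside 0.70 from one wild type to the other. Cd3e, a signalling chain of the receptor, stood at 18.92, 8.88 and 6.44, Cd3g at 17.57, 7.28 and 8.40, and Cd247, the zeta chain, at 13.36, 4.99 and 5.73. The knockout value of each lies far above both wild-type values. The wild types also differed by the rule in 4 of the 6 genes, Cd3e and Cd3g among them, by less than either differed from the knockout. Ptcra, the surrogate alpha chain that pairs with a rearranged beta chain in immature thymocytes, was higher by 3.81. Both coreceptor classes were higher on the same array: Cd4 stood at 16.79, 8.95 and 9.33, Cd8a at 17.91, 6.78 and 4.41, and Cd8b1 at 18.73, 5.0 and 3.28. In a bulk sample, more cells of a type and more RNA per cell cannot be told apart, and this holds for every difference reported here.

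Stage markers within the T lineage did not move as 1 block. Of 27 measured genes typical of CD4+CD8+ thymocytes, the cortical stage that rearranges the receptor's alpha chain, 19 were higher and 1 was lower, and the list's median was 3.67 against the Nr4a1 wild type, 3.60 against the other and 0.03 between the wild types. Themis, needed for positive selection, stood at 17.53, 5.05 and 4.56, and Dntt, the polymerase that adds untemplated bases at receptor joints, at 14.64, 2.40 and 2.58. Aqp11, an aquaporin, was higher by 12.45, Ly6d by 7.93, Endou by 7.27 and Arpp21 by 7.03. Ccr9, the chemokine receptor that keeps thymocytes in the cortex and takes lymphocytes to the gut, stood at 18.84, 11.16 and 10.32. Gzma, a granzyme gene of the list, was the 1 member called lower, at 11.04, 13.05 and 14.04.

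The machinery of antigen receptor rearrangement went with them. Of 9 measured genes 7 were higher and 0 lower, and the list's median was 2.75. Rag2, a subunit of the recombinase, stood at 10.50, 4.04 and 4.06. Xrcc6, which encodes the Ku70 end-binding protein, was higher by 6.05 and Lig4, the ligase that seals the ends, by 5.32. Hmgb1, a cofactor of the recombinase and an abundant chromatin protein, was higher by 2.75.

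Genes of earlier and later T cell stages stood differently. Of 20 genes of CD4-CD8- progenitors 11 were lower and 3 higher, and the list's median was -1.85, or -0.91 with the circZbtb20 wild type as reference. The 3 higher genes were Ptcra, Cd24a, which immature thymocytes carry, at 10.47, 6.69 and 6.84, and Notch1, at 5.11, 3.69 and 4.17. Il2ra, the CD25 gene that marks later progenitors, stood at 5.14, 12.64 and 12.22, and Cd44, which marks the earliest ones, at 8.03, 14.31 and 12.90. Of 25 genes of selection and mature T cells 8 were higher and 11 lower, and the list's median was -0.84. With the circZbtb20 wild type the median was -0.16, and 8 genes were lower against both. Itm2a, induced in positive selection, stood at 17.85, 5.27 and 4.96, and Cd5, which follows receptor signal strength, at 13.27, 5.04 and 4.56. Icos (13.32, 17.75, 17.39) and Ctla4 (5.12, 11.49, 11.18) were lower. Kit, Il7r, Il2ra and Icos, all counted as lower here, are also members of the ILC3 or ILC2 lists, and both references are labelled as ILC3s. A lower call in these lists therefore does not show that cells of a T cell stage are absent. Genes of egress and recirculation that were named after their values were seen did not rise: S1pr1 stood at 5.65, 5.90 and 5.81, Klf2 at 5.08, 5.97 and 5.30, and Ccr7 at 11.70, 14.48 and 13.10.

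Lists of smaller T cell classes were mixed. Of 10 genes of regulatory T cells 3 were higher and 5 lower, with Izumo1r higher by 3.69 and Tnfrsf18, which encodes GITR, lower at 9.08, 14.25 and 13.73. Of 6 genes of gamma delta and invariant T cells 0 were higher and 3 lower. Zbtb16, the PLZF factor shared by invariant T cells and ILC precursors, stood at 7.51, 11.55 and 12.81, and Maf at 4.18, 11.09 and 9.68.

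Proximal signalling genes of the T cell receptor were mostly higher. Of 28 measured genes 19 were higher and 3 lower, and the list's median was 3.73. Sh2d1a, the SAP adaptor, was higher by 10.32, the costimulatory receptor Cd28 by 9.39, the adhesion receptor Cd2 by 8.84, the adaptor Lat by 6.05 and the kinase gene Prkcq by 6.14. The kinase gene Zap70, at 10.41, 10.11 and 10.18, and the adaptor gene Lcp2, at 13.85, 13.89 and 13.29, did not pass the rule, and both were named after their values were seen. The lower genes were Txk, a kinase of the Tec family, at 11.41, 14.78 and 15.16, Ptpn22, a phosphatase that restrains receptor signals, at 10.22, 13.64 and 13.98, and Nfatc2 at 6.99, 9.57 and 8.23.

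T-lineage transcription factors split. Of 29 genes 13 were higher and 8 lower, 5 of these against both wild types, and the list's median was 0.58. Lef1, which with its relative TCF1 opens the T cell programme, stood at 16.71, 4.76 and 4.46, Myb at 15.54, 7.33 and 6.98, and Bcl11b, the commitment factor, at 14.07, 5.93 and 4.77. Tox (16.42, 12.04, 10.81), Satb1 (19.49, 15.28, 15.32) and Ikzf1 (16.87, 12.76, 11.40) were higher from levels already well above the array medians. Runx3, a factor of CD8 T cells and of ILC3s, was lower at 8.43, 14.16 and 13.48, and Foxo1 at 6.75, 9.24 and 9.51. The pair of E proteins Tcf3 and Tcf12 were higher by 2.49 and 1.86, and Id3, which binds and blocks E proteins, by 3.62, while its relative Id2 was lower at 15.48, 18.89 and 18.66.

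**Figure D2:**
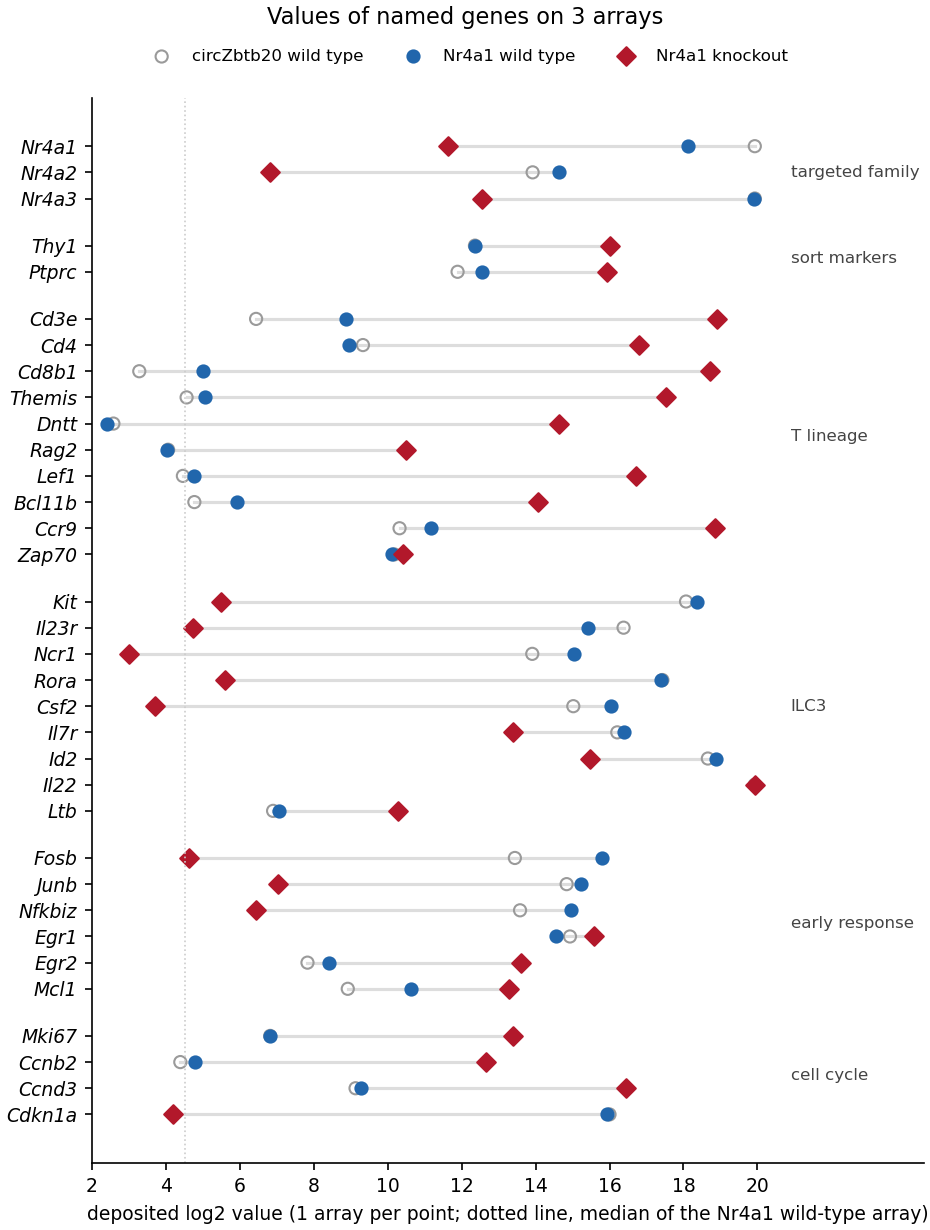
Deposited log2 value (x axis) of 34 named genes on the arrays labelled Nr4a1 knockout (red diamonds), Nr4a1 wild type (blue) and circZbtb20 wild type (grey circles), grouped by role, 1 array per point. The wild types lie close together in most genes, while the knockout lies far above them in T lineage genes such as Cd8b1 (18.73) and far below them in ILC3 genes such as Kit (5.48).

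Promoter sequence is shown for Cd3d and Ptcra, T lineage genes that moved together and hold a searched motif. Both windows are from RefSeq (build GRCm38.p6) and run from 250 bases before to 50 bases after the annotated start. The Cd3d window, chr9:44981536-44981835 on the plus strand, holds the TCF/LEF element CTTTGAT on the opposite strand, in capitals, beginning 55 bases before the start. The Ptcra window, chr17:46763663-46763962 on the minus strand, holds 3 copies of the E-box CAGCTG, in capitals. Cd3d stood at 15.79, 6.42 and 4.72 and Ptcra at 7.51, 3.70 and 3.98.
Cd3d: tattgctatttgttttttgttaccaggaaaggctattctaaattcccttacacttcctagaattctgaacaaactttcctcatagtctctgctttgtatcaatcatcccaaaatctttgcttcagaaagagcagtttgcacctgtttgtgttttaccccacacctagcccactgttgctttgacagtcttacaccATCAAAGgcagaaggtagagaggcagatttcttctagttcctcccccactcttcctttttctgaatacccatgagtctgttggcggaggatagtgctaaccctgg
Ptcra: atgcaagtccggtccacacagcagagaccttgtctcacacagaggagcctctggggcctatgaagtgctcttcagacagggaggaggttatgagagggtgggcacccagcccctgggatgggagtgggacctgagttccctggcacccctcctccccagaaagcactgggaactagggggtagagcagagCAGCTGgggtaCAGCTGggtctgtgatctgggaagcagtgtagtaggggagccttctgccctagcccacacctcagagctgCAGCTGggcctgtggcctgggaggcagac

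Over both strands, the TCF/LEF element was found in 3.24% of all 19142 promoter windows of measured genes. It was in 2.53% of the windows of all genes called higher against both wild types and in 3.2% of those of all lower genes. Among the CD4+CD8+ thymocyte genes called higher against both, a list without Cd3d and Ptcra, it was in 3 of 25 windows (12%). The E-box was found in 16% of all windows, 13.4% of those of all higher genes, 17.4% of those of all lower genes and 5 of those 25 (20%). Of the 19 thymocyte genes 14 had a window, some with several starts. A match says only that the letters are there.

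Genes that define ILC3s were lower as a group. Of 22 measured genes 19 were lower and 1 higher, and the list's median was -4.57 against the Nr4a1 wild type, -4.44 against the other and 0.14 between the wild types. Kit, the receptor for stem cell factor, stood at 5.48, 18.36 and 18.07, Rora, a nuclear receptor close to RORγt, at 5.59, 17.38 and 17.43, and Il23r at 4.73, 15.43 and 16.38. Ncr1, which encodes NKp46, stood at 3.0, 15.05 and 13.91, and Csf2, the GM-CSF gene, at 3.71, 16.05 and 15.02. In all 5 the knockout value lay near or under its array median and the wild types differed by at most 1.14, in Ncr1. The gene of RORγt itself was not analysed here.

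Some ILC3 genes were not lost from the knockout array. Il22 and its near-identical copy Iltifb stood at the ceiling on all 3 arrays, so no difference can be given. Il7r fell by 2.98 but stood at 13.40 on the knockout array, against 16.38 and 16.21, and Id2, given above, also stayed well above the array median. Ltb, a lymphotoxin subunit made by both ILC3s and T cells, was the 1 member called higher, at 10.28, 7.07 and 6.90. Il17a lay near the array medians on all 3 arrays, at 4.34, 4.60 and 5.10, while Il17f was lower at 6.66, 9.61 and 10.80.

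Factors and receptors of the wider innate lymphocyte family were lower too. Of 22 transcription factors of ILCs and NK cells 16 were lower and 1, Tox, was higher, and the list's median was -2.72. Bhlhe40, which supports cytokine production, stood at 8.42, 18.79 and 18.67, Nfil3, needed for ILC precursors, at 4.35, 13.46 and 12.68, Klf6 at 8.37, 13.62 and 12.47, and Prdm1, the Blimp-1 gene, at 3.35, 8.17 and 7.53. Of 37 genes of NK cells, ILC1s and cytotoxic granules 23 were lower and 3 higher, and the list's median was -1.55. Klrb1b, an NKR-P1 receptor, stood at 6.17, 18.31 and 17.88, Fcer1g, an adaptor of activating receptors, at 5.73, 13.33 and 13.63, and Gzmb at 6.0, 12.06 and 14.23. The 3 higher genes were Klra9 (10.11, 6.35, 6.28) and Klra3, receptors of the Ly49 family whose members are close copies and may share probes, and Cd226. Of 15 ILC2 genes 11 were lower and 0 higher, and the list's median was -4.33. The type 2 cytokine genes Il5 (4.10, 10.29, 11.74) and Il13 (4.14, 9.67, 7.82) were present on the wild-type arrays and near the median on the knockout array, and Il17rb stood at 10.57, 14.31 and 13.02.

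**Figure D3:**
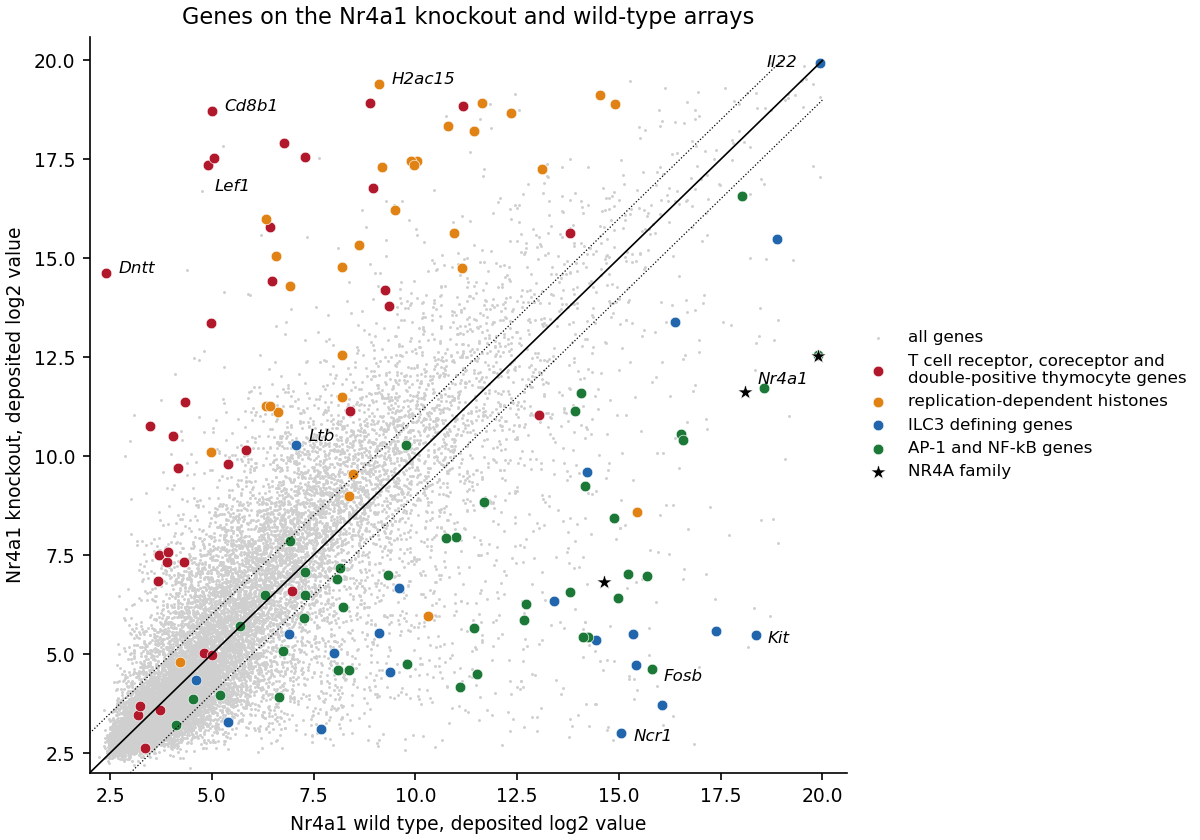
Deposited log2 value of each gene on the Nr4a1 wild-type array (x axis) and the Nr4a1 knockout array (y axis). The solid line marks equal values and the dotted lines a 2-fold difference; colours mark gene lists. T cell and histone genes lie mostly above the lines, ILC3, AP-1 and NF-kB genes and the NR4A family lie mostly below them, and Il22 sits at the ceiling of both arrays.

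Secreted effectors followed the receptors. Of 21 cytokine and effector genes of ILC3s 15 were lower and 1, Ltb, was higher, and the list's median was -3.27, or -2.0 with the circZbtb20 wild type as reference. Il6 stood at 3.18, 14.26 and 12.53, Vegfa at 6.90, 16.57 and 16.73, Lif at 4.40, 10.65 and 9.39, and Ifng at 4.75, 10.16 and 8.37. Tnf stood at 5.97, 9.24 and 6.98, so its difference of -3.27 was -1.01 against the other wild type. Il2 and Il21, cytokines of activated T cells, lay under the array median on all 3 arrays, at 3.04, 2.80 and 2.76 for Il2 and at 3.95, 3.77 and 3.95 for Il21. These latter values were looked up after the others were seen.

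Of 36 interleukin receptor subunits 20 were lower and 4 higher, and the list's median was -1.06. Besides Il23r and Kit, the largest falls were those of Il1r1 (5.35, 14.44, 15.27), Il18rap (5.21, 12.74, 11.70), Il2ra, given above, Il18r1 (6.33, 13.40, 13.16) and Il2rb, the shared IL-2 and IL-15 receptor chain (12.18, 18.34, 18.60). Il27ra, the IL-27 receptor chain, was higher at 17.54, 7.64 and 7.93, and its partner Il6st, which encodes gp130, at 13.57, 7.86 and 7.58. Il17ra and Il12rb1 were higher by 2.22 and 1.24.

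Signal carriers of these receptors differed by member. Of 21 JAK, STAT and SOCS genes 8 were lower and 4 higher, and the list's median was -0.46, or -0.16 against the circZbtb20 wild type. Stat4, which carries IL-12 and IL-23 signals, stood at 7.59, 15.97 and 16.04, Stat3 at 9.44, 14.69 and 15.02, and the kinase gene Jak2 at 10.94, 17.14 and 16.42. The feedback inhibitors Socs2 (5.72, 14.78, 14.34) and Cish (4.32, 11.15, 10.11), targets of STAT5, were lower, and Socs3 was at 3.11, 6.71 and 5.32. Socs1, which restrains cytokine signals in thymocytes, was higher at 9.03, 6.01 and 6.51. Stat5b, at 9.61, 9.69 and 9.77, differed by less than the rule asks, and was named after its values were seen.

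Chemokine genes were mostly lower. The list of chemokines and their receptors had 41 genes, of which 25 were lower and 2, Ccr9 and Ccl22, higher, and the list's median was -2.56. Cxcr6, a homing receptor of ILC3s, stood at 5.50, 15.35 and 15.06, the gene Ccrl2 at 3.73, 14.19 and 14.06, and Cxcl2, which attracts neutrophils, at 3.98, 13.57 and 13.04. Ccl3 stood at 3.16, 12.67 and 13.29 and Cxcl10 at 4.16, 12.65 and 12.03. Cxcl13, which attracts B cells, stood at 3.63, 13.08 and 6.28, so it differed by 6.80 between the wild types as well. Of 29 ligands and receptors of the TNF superfamily 14 were lower and 4 higher, and the list's median was -1.17. Tnfrsf18, Tnfrsf1b (7.75, 12.56, 11.45), Tnfrsf9 (8.31, 12.99, 13.35) and Tnfsf4 (3.72, 8.18, 7.93) were lower, and Cd40lg (11.27, 6.91, 4.37), Ltb, Tnfrsf4 and the death receptor gene Fas (7.68, 4.50, 4.51) were higher.

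Adhesion receptors differed by member. Of 22 integrins, selectins and sphingosine receptors, 21 passed the filter on low values, 6 were higher and 7 lower, beside 31.9% and 20.8% of all genes, and the list's median was 0.12, or -0.05 with the circZbtb20 wild type as reference. The chains of LFA-1, Itgb2 (10.41, 4.26, 3.78) and Itgal (15.18, 11.87, 11.97), were higher, as was the laminin receptor chain Itga6, by 2.26. The chains of the vitronectin receptor, Itgb3 (7.86, 13.92, 13.05) and Itgav (9.07, 12.45, 12.04), were lower, and so was Itga4, at 10.35, 13.42 and 12.67. Of 18 checkpoint and costimulatory receptors 9 were lower and 3, Cd28, Btla and Cd226, were higher. Cd200r1 stood at 6.76, 12.86 and 11.12 and Pdcd1, which encodes PD-1, at 9.63, 13.73 and 13.44.

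Receptors for neural, lipid and nucleotide signals gave some of the largest single differences. Of 25 genes 13 were lower and 4 higher, and the list's median was -1.16, or -0.51 with the circZbtb20 wild type as reference. Ramp3 and Ramp1, partners that set the ligand of the calcitonin-like receptor, moved in opposite directions, with Ramp3 at 3.22, 16.08 and 16.14 and Ramp1 at 12.55, 6.19 and 6.35. Ret, the receptor for glial-derived ligands through which ILC3s sense enteric glia, stood at 4.65, 11.09 and 12.41, and Nmur1, the neuromedin U receptor of ILC2s, at 3.34, 8.40 and 6.61. P2ry10 (8.45, 13.81, 14.08), Gpr65 (11.52, 16.26, 16.74) and Gpr183, the oxysterol receptor (9.59, 14.21, 14.84), were lower, and Gpr174 was higher at 10.05, 4.50 and 3.58. Ptgs2, the inducible cyclooxygenase, had the largest fall of all genes, at 2.73, 16.85 and 16.40. Dgat1, an enzyme of triglyceride synthesis, stood at 4.67, 16.97 and 17.11.

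Of the other nuclear receptors, which bind hormones, lipids or haem, 6 of 23 were lower and 2 higher, and the list's median was -0.19, or -0.85 against the circZbtb20 wild type. After Rora the largest falls were those of the circadian repressors Nr1d1 (4.56, 10.61, 9.17) and Nr1d2 (6.57, 12.01, 12.01), and Nr3c1, the glucocorticoid receptor, stood at 6.85, 9.84 and 9.50. Nr2c2 and Rxrb were higher by 2.06 and 1.81. Of 22 genes of aryl hydrocarbon and retinoid signalling 9 were lower and 1, Rxrb, was higher. Ahr, the receptor that ILC3s need in the gut, stood at 4.54, 9.39 and 7.78, its target Tiparp at 6.55, 10.43 and 10.02, and the retinal reductase gene Dhrs3 at 8.74, 13.29 and 12.47.

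Immediate-early genes, to which the NR4A family belongs, were lower in large part, on the array with the T cell receptor complex median of 8.87. Of 16 AP-1 factors 14 were lower and 0 higher, and the list's median was -4.04, against 0.54 between the wild types. Fosb stood at 4.63, 15.81 and 13.44, Fosl2 at 5.44, 14.24 and 13.67, Jun at 6.97, 15.69 and 13.94, Junb at 7.02, 15.23 and 14.84, and Atf3 at 6.57, 13.79 and 13.47. Jund, which is made without stimulation in many cells, was lower by less, at 11.59, 14.07 and 13.32. Mafk, at 5.70, 5.70 and 5.76, was level and was named after its values were seen.

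The other immediate-early genes, 43 in number, had 30 lower and 4 higher members, and the list's median was -3.63, or -2.76 with the circZbtb20 wild type as reference. The wild types differed in 15 of them, all higher in the Nr4a1 wild type, and the list's median between the wild types was 0.64. Gem, a small GTPase, stood at 5.96, 18.71 and 18.67, Odc1, the first enzyme of polyamine synthesis, at 7.80, 18.90 and 18.74, Rgs1, a brake on G protein signals, at 8.40, 18.50 and 18.52, and Pim1, a survival kinase, at 11.02, 19.19 and 18.41. Sik1 stood at 7.16, 16.59 and 14.55. The 4 higher genes were Id3, Srf (9.38, 6.47, 6.45), the serum response factor that switches on this class, Mcl1 (13.29, 10.64, 8.92) and Zfp36l2 (15.16, 12.60, 10.58). Cd69 and Btg2, both named after their values were seen, were near level at 15.61, 15.77 and 14.96 for Cd69 and at 11.60, 11.81 and 11.38 for Btg2.

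The EGR factors did not go with the rest of the class. Of 6 genes 3 were higher and 2 lower, and the list's median was 0.85. Egr2, an antigen receptor target that acts in thymocyte selection, stood at 13.61, 8.42 and 7.83, and its corepressor gene Nab2 at 11.28, 6.96 and 6.16. Egr1 stood at 15.57, 14.54 and 14.93, higher by 1.03 against the Nr4a1 wild type but not past the rule against the other. Egr3, counted as lower, was at 4.57, 6.63 and 5.38 on the row used, but its other rows stood at 6.40, 4.94 and 4.56 and at 3.29, 2.94 and 2.98, so its direction is uncertain. The other lower gene was Nab1, at 7.89, 9.48 and 10.52.

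Feedback brakes of the kinase pathways were split. Of 24 DUSP, RGS and Sprouty genes 10 were lower and 7 higher, and the list's median was -0.25. Spry2 stood at 3.53, 12.27 and 12.14, Rgs2 at 8.78, 16.33 and 14.99, and the phosphatase genes Dusp5 (10.69, 17.16, 16.59) and Dusp4 (4.90, 10.11, 8.70) were lower. Rgs10 (12.78, 9.60, 7.98), Rgs19, Rgs3 and Dusp2 were higher by 3.18, 2.90, 2.76 and 2.53.

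Promoters are shown for Dusp1, a phosphatase that ends MAP kinase signals, and Plk2, a polo-like kinase, as immediate-early genes that were lower and hold the full cyclic AMP response element (CRE), TGACGTCA. Dusp1 stood at 13.44, 18.91 and 18.36 and Plk2 at 3.90, 9.47 and 8.79. The Dusp1 window is chr17:26508423-26508722 on the minus strand and the Plk2 window chr13:110394794-110395093 on the plus strand, both from RefSeq, build GRCm38.p6. The element is in capitals, 143 bases before the start in Dusp1 and 62 before it in Plk2.
Dusp1: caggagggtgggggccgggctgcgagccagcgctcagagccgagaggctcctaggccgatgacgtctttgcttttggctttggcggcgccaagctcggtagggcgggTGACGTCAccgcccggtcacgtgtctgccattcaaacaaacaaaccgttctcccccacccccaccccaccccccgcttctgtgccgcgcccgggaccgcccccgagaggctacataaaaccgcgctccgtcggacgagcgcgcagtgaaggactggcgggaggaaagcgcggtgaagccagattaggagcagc
Plk2: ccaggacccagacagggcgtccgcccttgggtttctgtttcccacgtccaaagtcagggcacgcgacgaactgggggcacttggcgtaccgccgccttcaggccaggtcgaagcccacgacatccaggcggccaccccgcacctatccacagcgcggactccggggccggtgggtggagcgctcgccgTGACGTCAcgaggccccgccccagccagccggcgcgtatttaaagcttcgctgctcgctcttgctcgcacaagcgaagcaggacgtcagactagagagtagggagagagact

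For the motif count, the lists of EGR, AP-1, other immediate-early, DUSP, RGS and Sprouty, and NF-kB genes were joined. The CRE was found in 7 of 64 windows (10.9%) of the joined genes called lower against both wild types. It was found in 2.31% of all windows, 3.26% of those of all lower genes and 2.59% of those of all higher genes. The NBRE, AAAGGTCA, to which NR4A proteins bind, was found in 0 of those 64 windows, in 1.46% of the windows of all lower genes, in 0.884% of those of all higher genes and in 1.32% of all windows. With a share that low over all windows, 0 of 64 does not stand apart. The AP-1 element TGANTCA was in 8.09% of the windows of lower genes, 3.78% of those of higher genes and 7.15% of all. A ROR element, ANTNGGTCA, was in 2.02%, 1.40% and 1.95% in the same order. Both strands were searched. The ROR element and the NBRE end in the same letters, GGTCA, but no single site can be both. Of the 65 lower genes of the joined lists 50 had a window, some with several starts. The windows hold 300 bases and leave out distant enhancers, and no match says only that the letters are not in the window.

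Like the AP-1 factors, the NF-kB genes had no member called higher. Of 27 measured genes 20 were lower and 0 higher, and the list's median was -2.85, against 0.51 between the wild types. Traf1 stood at 5.43, 14.11 and 13.49, Nfkbiz, a nuclear cofactor needed for IL-17 family genes, at 6.43, 14.97 and 13.58, Nfkbie at 4.51, 11.51 and 10.65, and Nfkb2 at 5.87, 12.66 and 12.25. Tnfaip3, the A20 brake, stood at 12.55, 19.89 and 19.29, and the subunit gene Rel at 11.73, 18.56 and 18.36. The kinase subunit gene Ikbkb, at 6.49, 6.31 and 5.80, did not pass the rule and was named after its values were seen.

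Factors that destroy or stabilise cytokine transcripts moved in both directions. Of 20 genes 11 were higher and 4 lower, and the list's median was 1.42, or 0.94 with the circZbtb20 wild type as reference. Zc3h12a, the Regnase-1 nuclease, stood at 7.46, 14.12 and 14.09, Zfp36l1 at 13.03, 18.45 and 16.91 and Zfp36, tristetraprolin, at 10.57, 14.72 and 12.78. Their relative Zfp36l2, which acts in thymocyte development, was higher, as given above. Tia1, Cnot8 and Hnrnpd were higher by 4.59, 3.44 and 2.52.

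Of 34 Notch receptors, ligands and targets 9 were higher and 12 lower, and the list's median was 0.02, or -0.10 against the circZbtb20 wild type. The target genes Hey1 (4.02, 11.95, 12.42) and Hes1 (4.19, 6.74, 6.32) were lower, as was Rbpj, the DNA-binding partner of Notch, at 10.07, 15.07 and 14.65. Genes that process or modify the receptor differed by member. Psenen, of gamma-secretase, was higher by 2.89, Adam10, a protease that cuts the receptor first, by 1.55, and the fringe enzyme gene Mfng by 1.88. Psen2, also of gamma-secretase, was lower at 5.46, 7.94 and 7.94, and Ncstn, Aph1a and Rfng did not pass the rule, with differences of 0.01, 0.43 and 0.63.

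Survival genes differed by member. Of 22 genes of the BCL2 family 3 were higher and 8 lower, 5 of these against both wild types, and the list's median was -0.12, or 0.02 against the circZbtb20 wild type. The Bcl2a1 genes, close copies that may share probes, were lower, with Bcl2a1d at 6.78, 14.21 and 14.44. Bcl2l1, which encodes BCL-XL, stood at 9.05, 10.67 and 10.16, Bcl2l11, the BIM gene, at 10.70, 12.31 and 11.78, and Bak1 was higher by 1.77. Of 17 KLF and FOXO factors 7 were lower and 2, Foxp1 and Klf13, were higher, each by 1.28.

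Genes of the cell cycle were higher across its phases. Of 17 G1 cyclins, kinases and E2F factors 12 were higher and 1 lower, and the list's median was 1.76. Ccnd3, the D-type cyclin that expanding thymocytes need, stood at 16.45, 9.27 and 9.13, E2f2 at 12.09, 4.10 and 3.64, and Cdk4 at 12.77, 8.56 and 8.76. Ccnd2 was the lower gene, at 8.27, 9.31 and 8.17, and level with the other wild type. Of 46 genes of DNA replication and nucleotide synthesis 33 were higher and 0 lower, and the list's median was 2.03. Rrm2, of ribonucleotide reductase, stood at 10.72, 5.04 and 6.05, the maintenance methylase gene Dnmt1 at 10.91, 5.11 and 4.69, and Pcna, the sliding clamp, at 17.31, 13.60 and 13.33.

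Of 58 genes of mitosis and the spindle 47 were higher and 2 lower, and the list's median was 2.75 against the Nr4a1 wild type, 3.03 against the other and 0.02 between the wild types. Ube2c stood at 12.48, 4.56 and 3.85, Ccnb2, a mitotic cyclin, at 12.67, 4.80 and 4.39, Plk1 at 12.42, 4.68 and 4.93, and Mki67, the Ki-67 gene, at 13.40, 6.82 and 6.82. The lower members were Cenpa (9.03, 10.25, 10.43) and Pttg1. Of 21 genes of DNA repair 12 were higher and 1, Nbn, was lower, at 5.69, 10.07 and 8.99. Inhibitors of the cycle moved in both directions. Of 23 genes 5 were higher and 7 lower. Cdkn1a, which encodes p21, stood at 4.19, 15.93 and 16.00 and Gadd45b at 6.32, 15.92 and 15.37, while Cdkn2d (8.95, 5.15, 4.78), Rbl1 and Cdkn1b were higher by 3.80, 3.19 and 1.51.

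Replication-dependent histone genes had a median of 5.73, above that of every other list except the T cell receptor complex and the coreceptors. Of 32 genes 28 were higher and 2 lower, and 15 also differed between the wild types, all higher in the Nr4a1 wild type, and the list's median between the wild types was 0.96. H2ac15 stood at 19.40, 9.12 and 7.91, H1f1, a linker histone, at 16.00, 6.34 and 5.10, and H2bc12 at 15.07, 6.57 and 5.89. The lower genes were H2bc4 (8.60, 15.44, 11.92) and the linker gene H1f2 (5.96, 10.32, 9.23). Many of these genes are close copies, and H3c13 and H3c14 carry the same values on all 3 arrays, so they are not separate measurements.

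**Figure D4:**
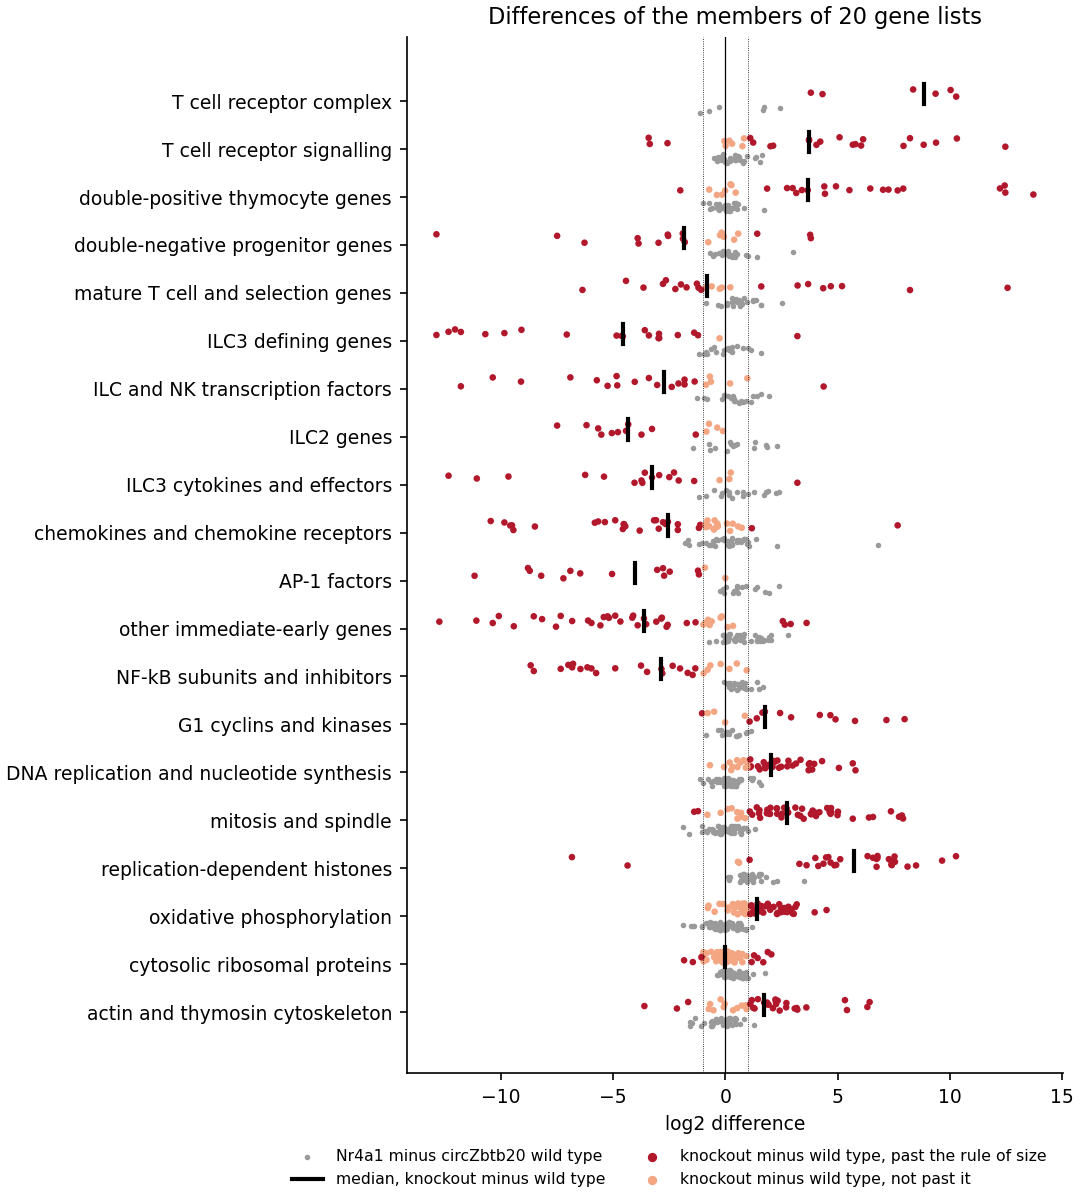
Log2 difference (x axis) of each member of 20 gene lists (y axis). Red and pale red points are the knockout minus the Nr4a1 wild type, past and not past the rule of size; black bars are their medians; grey points are the Nr4a1 wild type minus the circZbtb20 wild type. Medians run from 8.87 for the T cell receptor complex to -4.57 for ILC3 defining genes, and ribosomal protein genes centre on 0.0.

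Energy metabolism was higher in the knockout by smaller amounts. Of 75 subunits of oxidative phosphorylation 48 were higher and 0 lower, and the list's median was 1.43, against -0.12 between the wild types. Atp5o and Atp5g1, of the ATP synthase, were higher by 4.51 and 3.98, Ndufs8 of complex I by 3.18 and Sdhb of complex II by 2.30. Of 22 glycolysis genes 12 were higher and 4 lower, and the list's median was 1.16. Pdk1, which keeps pyruvate from mitochondria, stood at 10.04, 5.56 and 4.72 and Pgk1 at 10.50, 6.17 and 5.77. The hexokinase genes went apart, with Hk1 at 11.60, 9.01 and 9.13 and Hk2 at 4.45, 9.88 and 11.28. The 55 ribosomal protein genes had a median of 0.0, or 0.13 against the circZbtb20 wild type, with 6 higher and 4 lower, 2 of these against both.

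Of 23 genes of cholesterol synthesis and uptake 8 were higher and 4 lower, the median being 0.01, or 0.08 against the circZbtb20 wild type, with Npc1 higher by 4.08 and Cyp51 at 7.09, 12.18 and 10.50. Of 30 glycerolipid and eicosanoid enzymes 9 were higher and 7 lower. Lpcat3 (15.07, 9.27, 9.45), Agpat3 (14.41, 9.65, 9.31) and Dgka, a kinase that removes diacylglycerol after receptor signals (15.42, 10.22, 9.54), were higher beside the falls of Dgat1 and Ptgs2. Of 22 nutrient transporters 8 were higher and 7 lower. Slc3a2, the CD98 heavy chain, stood at 13.74, 18.47 and 17.64, and the carrier gene Slc16a5 at 9.71, 4.18 and 4.45. Of 25 metallothionein and redox genes 9 were higher and 8 lower, with Mt1 at 5.35, 13.12 and 12.88 and Prdx2 at 12.28, 7.98 and 8.69.

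Chaperones split by class, and their median changed sign with the reference, at -0.82 against the Nr4a1 wild type and 1.46 against the other. Of 26 genes 10 were higher and 12 lower, 7 of these against both. Dnajb1 (12.38, 13.90, 9.97) and Hspe1 (10.09, 11.10, 8.65) were lower than in the Nr4a1 wild type and higher than in the other, each by the rule of size. The higher genes included subunits of the cytosolic chaperonin that folds actin and tubulin, such as Cct5 (13.26, 10.19, 9.23), Cct2 and Cct8. The lower ones included the inducible genes Hspa1b (4.83, 14.88, 10.10) and Hspa1a (4.47, 12.94, 9.99), near-identical copies, and Hspa5, of the endoplasmic reticulum, at 14.98, 18.62 and 18.95. Of 39 genes of the actin and tubulin cytoskeleton 25 were higher and 3 lower, and the list's median was 1.73. Tubb5 stood at 18.30, 11.87 and 12.30, Arhgdib at 17.68, 11.35 and 12.01 and Coro1a, needed for T cell egress and survival, at 11.14, 5.81 and 6.06. Actb, at the ceiling in the knockout, was higher by at least 1.18. Lmna, at 4.90, 8.51 and 7.25, was lower.

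Antigen presentation genes were lower in part. Of 18 class I genes 9 were lower and 3 higher, and the list's median was -1.21, or -0.58 with the circZbtb20 wild type as reference. H2-K1 stood at 12.94, 18.81 and 18.32, H2-Q4 at 7.59, 13.73 and 12.25, and B2m, the shared light chain, fell by at least 2.88, since it stood at the ceiling in the Nr4a1 wild type and at 17.05 in the knockout. The non-classical genes Mr1 (8.91, 3.02, 3.34) and Cd1d1 (7.32, 3.91, 3.72), the second of which presents lipids on cortical thymocytes, were higher. Of 9 class II genes 6 were lower, 3 of them against both wild types, with H2-Ab1 at 8.84, 13.18 and 11.39, and the wild types differed in 7 of the 9. Of 43 interferon-stimulated and IRF genes 11 were higher, 5 of them against both wild types, and 8 lower. The list's median was 0.16, or -0.02 against the circZbtb20 wild type, and Psmb8, of the immunoproteasome, was higher by 3.59.

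Chromatin enzymes were higher more often than lower. Of 36 genes of histone and DNA methylation and deacetylation 18 were higher and 5 lower, and the list's median was 0.99. Hdac7, a class IIa deacetylase of thymocytes, stood at 12.08, 7.15 and 6.09, Hdac1 at 14.44, 9.98 and 8.87, Ezh2, the polycomb methylase, at 11.59, 7.33 and 7.39, and Tet1 at 7.76, 3.17 and 3.38. Kdm6b, an H3K27 demethylase induced on activation, was lower at 13.39, 17.57 and 16.54, as were Kdm2b and Tet2, by -3.18 and -2.73. Of 16 m6A writers, erasers and readers 6 were higher and 2 lower, and the list's median was 0.01, or 0.20 against the circZbtb20 wild type. Mettl3 and Mettl14, which form the writer, were higher by 1.08 and 2.13, and the readers Ythdc1 and Ythdf3 differed by -2.17 and -1.42.

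Markers of other cell types moved with the comparison, and their part in the results above was not tested. Pancreatic acinar genes were present on the wild-type arrays and low on the knockout array: 19 of 20 were lower, and the highest of the list reached 5.44 on that array, beside 13.63 and 17.16 on the wild types. Amy2a5, an amylase, stood at 4.14, 13.63 and 17.16 and Ctrb1 at 3.06, 12.33 and 14.32. The wild types differed in 14 of the 20 acinar genes, all lower in the Nr4a1 wild type. Of 25 intestinal epithelial genes 23 were lower, 12 of them against both wild types, with a highest value of 5.81, 14.16 and 10.89. The list's median was -3.05, or -0.9 with the circZbtb20 wild type as reference. The wild types differed in 19 of the 25, all higher in the Nr4a1 wild type. Defa24, a Paneth cell defensin, stood at 3.18, 13.86 and 9.44 and Muc2, the goblet cell mucin, at 4.43, 10.43 and 5.27. The defensins Defa21 (3.43, 16.34, 12.07) and Defa22 were among the 15 lowest genes of the whole comparison, and are close copies. Of 18 stromal and endothelial genes 14 were lower, with Dcn, of fibroblasts, at 3.06, 13.00 and 12.13 and Lyve1, of lymphatic vessels, at 3.95, 10.07 and 11.90.

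Blood cell markers gave a mixed picture. Of 8 plasma cell genes 6 were lower, with Jchain at 9.94, 19.08 and 16.12. Of 17 macrophage and monocyte genes 12 were lower, 8 of these against both wild types, and 10 of the 17 differed between the wild types. The list's median was -1.87, or -0.93 with the circZbtb20 wild type as reference. Its 1 higher gene was Ly6c2, which T cells can carry too, at 11.74, 6.16 and 5.91. Cd79a, a B cell receptor chain, stood at 4.41, 6.99 and 4.65, and of 15 B cell genes 1 was higher and 4 lower, 1 of these against both wild types, and the list's median level on the knockout array was 4.09. Genes of granulocytes and mast cells reached at most 5.03 on the knockout array and 5.36 on its wild type. Thymic epithelial genes reached at most 5.95 on the knockout array, with 0 of 10 higher. Foxn1, which defines those cells, stood at 3.27, 2.86 and 2.87, under the median of each array, and was named after its values were seen. Y-linked genes also separated the arrays: Uty stood at 5.69, 9.96 and 2.65 and Eif2s3y at 5.56, 8.68 and 3.04. Both genes lay under the array median on the circZbtb20 wild type and above it on the knockout and the Nr4a1 wild type. The wild types used as references thus differed in Y-linked signal. The sex of the mice is not given, and its part in the differences was not tested.

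**Figure D5:**
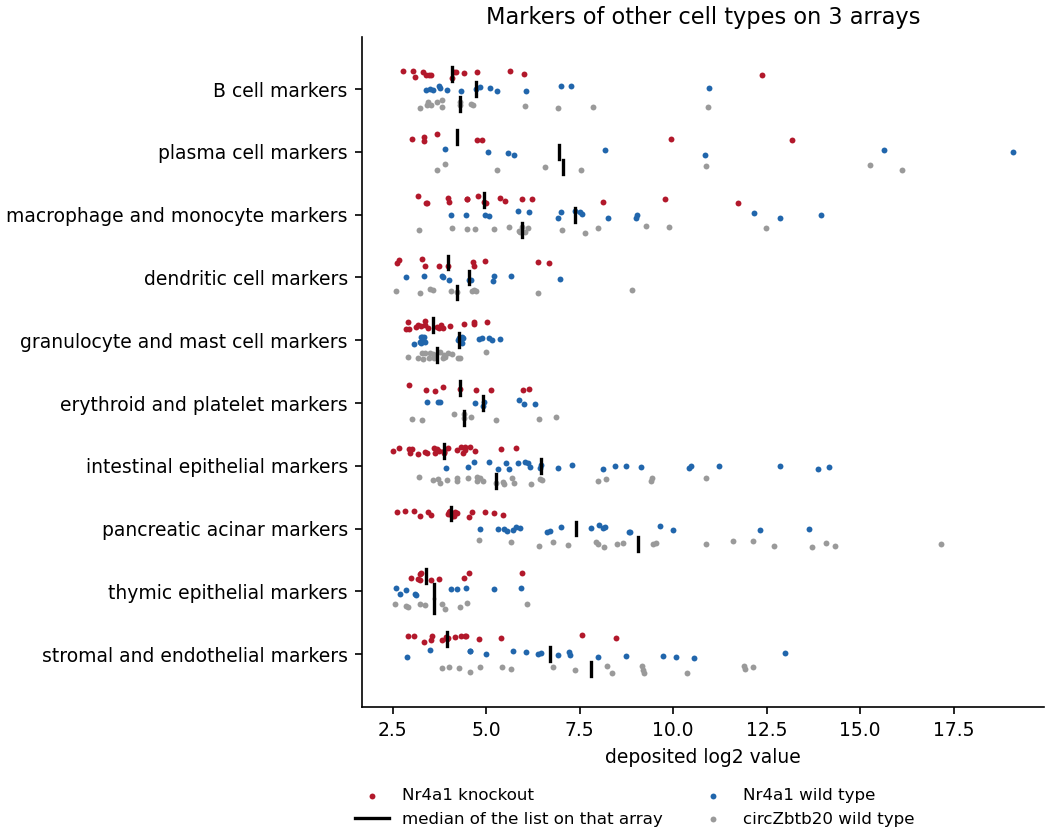
Deposited log2 value (x axis) of each marker in 10 lists of other cell types (y axis) on the Nr4a1 knockout (red), Nr4a1 wild type (blue) and circZbtb20 wild type (grey) arrays; black bars are the median of each list on that array. Acinar, epithelial and stromal markers reach 5.44, 5.81 and 8.48 in the knockout and, for its wild type, 13.63, 14.16 and 13.00.

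The 15 highest and 15 lowest genes against both wild types held a few more names. Of the highest, 12 came from the T lineage lists, and the others were Il27ra, H1f1 and H2ac15, given above. Among the lowest were Lilrb4a, an inhibitory receptor of myeloid cells and lymphocytes, at 5.17, 18.17 and 17.93, Plekhg1 at 2.91, 15.07 and 16.44, and Pxdc1 at 3.08, 14.71 and 15.68. In all 3 genes the knockout value was far under both wild types, which differed most in Plekhg1, by -1.37.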

How the data were processed

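Each sample was 1 Affymetrix array, hybridised with labelled cDNA from the total RNA of cells sorted by flow cytometry, per the labels' protocols. The deposited values are log2 values on 2 decimals, made by the authors with Affymetrix Power Tools and RMA, per the submitters' processing notes. As a method, RMA subtracts background, brings arrays to 1 distribution and merges the probes of a gene. The deposited arrays did not share 1 distribution. Their medians were 4.34, 4.51 and 4.48 and their 95th percentiles 11.63, 11.53 and 11.38, in the order of the triplets. Whether cells differed in how much RNA they held cannot be read from such values. The sources used here give no versions, settings or genome build. They do not say why values stop at 19.93 either, so fold sizes describe deposited values. The series text names another Affymetrix mouse gene array than the platform of the probe table through which rows were named. That table gave 1 symbol for 19571 rows, several for 0 and none for 2634. Symbols were matched to RefSeq, for names only.

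The samples were grouped by title. Differences, medians and counts were computed with Python 3.11.15, pandas 2.3.3 and numpy 2.4.6, quantile and cyclic loess normalization with limma 3.58.1 in R 4.3.3, and figures with matplotlib 3.10.9. The rule of size was run on simulated data with planted changes larger than the rule asks and noise smaller than the differences between the wild types. That run checks the code only and gives no rate of false calls for these arrays. The 66 gene lists, the members and the rules were chosen with earlier results of these data known, so no list is independent evidence. The lists share genes. Named genes are the NR4A family, the sort markers, the cell type markers, the 15 highest and 15 lowest genes against both wild types (leaving out gene segments of antigen receptors, olfactory receptors, small RNAs and predicted genes), up to 8 members of each list with the largest differences past the rule of size, and members that stand against their list. Other genes were named after their values were seen. Promoters were chosen for print after their matches were known. No test could be made with 1 array per genotype. Alternatives were other normalizations, references, filters and thresholds. Zbtb20 and the circZbtb20 knockout array were not analysed here.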

Additional observations from a re-analysis of the deposited data

Results flagged for a closer look

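Rows that the probe table left without a gene symbol entered no comparison of the report, and they too separated the arrays. Of 1351 such rows past the filter on low values, 308 were higher in the Nr4a1 knockout and 327 lower than in the Nr4a1 wild type, with differences from 10.45 to -11.98. The same rule called 249 unnamed rows between the wild types. What these rows measure was not analysed here.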

How the results depend on the processing

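The counts of genes called higher (3574) and lower (2327) and the count between the wild types (1631) stayed within 1.5 times under quantile normalization, cyclic loess, subtraction of array medians, the mean of a gene's rows, leaving out genes at the ceiling and no filter, as did the counts of higher and lower genes with either other reference. A 4-fold threshold gave 1646 higher, 1149 lower and 204 between the wild types, and a filter at the 75th percentile gave 1443 lower and 1060 between the wild types, in both cases because the rule asks for more. Subtracting array medians moved the median difference over all genes to 0.17. Over genes past the filter the median difference was 0.29, and ran from 0.07 with cyclic loess to 0.46 with array medians subtracted. The share of calls that were higher was 60.6%, and ran from 52.7% with cyclic loess to 66.4% with array medians. The median of ILC3 defining genes was -4.04 against the mean of both wild types, and that of other immediate-early genes was -4.19 with cyclic loess and -2.76 against the circZbtb20 wild type; the cause was not tested. Of 455 list medians under an alternative, 424 moved by less than the spread between the wild types. That spread is the standard deviation of the wild-type differences over the list's members, scaled to 1 array. Single genes were set against another yardstick. Of 2925 differences of 418 genes that the naming rules admit, 2121 moved by less than the gene's own wild-type difference, scaled likewise. Another 799 moved by more, and 5 changed sign. Where the wild types are unequal, a change to the circZbtb20 wild type as reference always exceeds this yardstick. A change to the mean of both wild types always stays under it. Those outcomes were fixed in advance, so the counts do not measure how steady single genes are under either reference. With the circZbtb20 wild type as reference, 8 of 66 list medians changed sign, of which only that of the Y-linked genes, at 2.80, had been at least 1 in size before. So did 25 of 875 called genes of the lists. Of these, 4 were at least 2-fold apart in both directions, Dnajb1 at 2.41, Hspe1 at 1.44, Eif2s3y at 2.52 and Uty at 3.04, while Ptger4 (0.67), Hsph1 (0.72), Hsp90aa1 (0.55), Cldn4 (0.06), Cnot6 (-0.02) and H2-DMa (0.04) passed 0 by less. No paired analysis was possible because each genotype has 1 array and the labels give no replicate numbers. No array could be left out. Signal near background limits the differences of low genes.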
